A study of Mus musculus with 12 samples.

Results

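Glycolysis and hypoxia genes were followed through mouse colonic organoids as 36 members, namely the rows of the deposited table whose Ensembl identifiers carry the listed symbols in the GENCODE vM21 annotation of GRCm38. All 36 were found among 48795 genes, and all 36 passed the filter on low values that left 14856 genes for testing. Colonic organoids are hollow epithelial structures grown from isolated colon crypts in a gel matrix, here of C57BL/6 background. The libraries were labelled AhR-/- (AhR deficient, called KO, with no word on how the gene was deleted) or WT, and AhR is the aryl hydrocarbon receptor, a ligand-activated transcription factor. Each genotype was measured as differentiated organoids, kept for 3 days without Wnt-3A, and as stem cells, grown in WENR medium, which holds Wnt-3A as well as EGF, Noggin and R-spondin-1. All 4 groups, of 3 libraries each, were first grown with Wnt-3A, and age and sex of the animals are not given in the labels. The values are normalized counts, that is, reads per gene scaled by the authors to a common depth, and the libraries held between 25057534 and 99023592 reads. Values by library are normalized counts, in the order of libraries 1 to 3 of a group. Changes are log2 changes ± SE from a limma fit of all 12 libraries, and genes whose p, after Benjamini-Hochberg adjustment, lay under 0.05 were called. Whether a group's 3 libraries stem from different animals or cultures is not labelled, and the p-values therefore cover no more than the spread of these libraries. These are bulk samples, in which fewer cells of a type and less RNA per cell cannot be told apart.

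Glycolysis splits glucose into pyruvate in the cytosol, and lactate dehydrogenase turns pyruvate into lactate when it does not enter the mitochondria. The hypoxia-inducible factors HIF-1alpha and HIF-2alpha are hydroxylated by the EGLN enzymes and degraded in the presence of oxygen. At low oxygen they accumulate, pair with ARNT, and raise glucose transporters, most glycolytic enzymes, the mitophagy receptor BNIP3, VEGF and adrenomedullin. AhR also pairs with ARNT, and its core recognition sequence shares letters with the hypoxia response element. The colonic epithelium lies along a steep oxygen gradient and is known for low oxygen at its luminal surface.

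The promoters of these genes are shown first because many of these genes are known to share the core of the hypoxia response element. The 250 bases before the transcription start were taken from the RefSeq promoter table for GRCm38.p6 and searched on both strands for ACGTG and for GCGTG, which is also the AhR core. A window was found for 33 of the 36 members (50 windows, several genes having more than 1 start), and not for Bnip3l, Epas1 and Ndrg1. ACGTG or GCGTG stood in 41 of the 50 member windows (82.0%), against 38.6% of all 32851 windows in the table. ACGTG alone was in 23 member windows and in 16.6% of all windows, and GCGTG in 29 member windows and 28.2% of all windows. Counted by gene, 30 of the 33 members had either sequence in some window, against 41.5% of all 27025 genes in the table, and Gpi1, Gys1 and Tpi1 had neither. A match describes these letters only, and base composition, which differs between promoters, was not matched.

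Of these windows, 5 are printed 5′ to 3′ on the strand of the gene, up to the first base that GENCODE counts to the gene. Capitals mark ACGTG (read as CACGT where it lies on the other strand) and GCGTG (read there as CACGC). Adm (chr7:110627407-110627656, + strand) is the member with the widest range of levels. Pgk1 (chrX:106186850-106187099, + strand) and P4ha1 (chr10:59323046-59323295, + strand) fell after Wnt-3A withdrawal in KO, Bnip3 (chr7:138909520-138909756, - strand) is the mitophagy gene, and Ddit4 (chr10:59951835-59952020, - strand) is a member that rose.
Adm: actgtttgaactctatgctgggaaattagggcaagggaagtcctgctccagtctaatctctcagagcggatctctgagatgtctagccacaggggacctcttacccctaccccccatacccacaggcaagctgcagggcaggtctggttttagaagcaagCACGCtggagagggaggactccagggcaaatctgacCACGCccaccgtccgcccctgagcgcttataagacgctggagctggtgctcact
Pgk1: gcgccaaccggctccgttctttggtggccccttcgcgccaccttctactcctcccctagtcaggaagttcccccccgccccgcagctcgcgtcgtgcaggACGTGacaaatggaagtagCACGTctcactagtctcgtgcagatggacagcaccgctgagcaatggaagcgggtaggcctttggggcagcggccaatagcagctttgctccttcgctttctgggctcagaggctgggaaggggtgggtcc
P4ha1: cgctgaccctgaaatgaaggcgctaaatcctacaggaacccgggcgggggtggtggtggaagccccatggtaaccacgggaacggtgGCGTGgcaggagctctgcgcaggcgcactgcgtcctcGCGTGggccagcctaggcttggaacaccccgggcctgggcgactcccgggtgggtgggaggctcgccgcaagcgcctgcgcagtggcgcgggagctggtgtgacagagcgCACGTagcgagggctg
Bnip3: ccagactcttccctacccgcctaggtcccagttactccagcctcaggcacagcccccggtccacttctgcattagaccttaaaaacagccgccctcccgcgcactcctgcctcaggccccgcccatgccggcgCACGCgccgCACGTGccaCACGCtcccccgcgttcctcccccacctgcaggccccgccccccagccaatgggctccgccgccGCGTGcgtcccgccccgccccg
Ddit4: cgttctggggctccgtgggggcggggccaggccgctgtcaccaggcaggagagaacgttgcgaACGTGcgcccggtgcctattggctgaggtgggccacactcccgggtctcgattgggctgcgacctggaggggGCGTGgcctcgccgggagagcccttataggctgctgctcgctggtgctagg
The Adm stretch held 2 GCGTG matches, both on the reverse strand, and 0 ACGTG matches. The Pgk1 stretch held 1 ACGTG match on each strand. That of P4ha1 had 1 ACGTG and 2 GCGTG matches, and that of Bnip3 had 2 ACGTG, overlapping as CACGTG, and 3 GCGTG matches. The Ddit4 stretch held 1 of each, so that the letters stood before members that fell and before one that rose.

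The libraries matched their labelled tissue: all 7 epithelial markers, Epcam, Cdh1 and Krt8 among them, were high in all 12 libraries, with summed levels of at least 589074 normalized counts. Ahr itself was not lower in the libraries labelled AhR deficient. It lay between 2503 and 3824 there, against 1746 to 2260 in WT libraries, a count over the whole gene that does not show whether the deleted part was transcribed, so that KO below means the libraries so labelled. Cyp1b1, a gene induced through AhR, lay between 13.0 and 571 in KO and between 574 and 8502 in WT libraries, and within each culture condition KO and WT did not overlap.

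Some libraries stood apart before any comparison. WT stem library 1 was the lowest of its group for 36 of 36 members, a position it took for 39.5% of all tested genes. KO stem library 1 was the lowest of its group for 33 members (36.9% of all tested genes), and KO differentiated library 1 for 32 (40.0%). On average over the members, WT stem library 1 lay 0.80 below its group mean on the log2 scale, against 0.41 and 0.39 above it for WT stem libraries 2 and 3. The mean deviation of library 1 was -0.31 in the KO differentiated and -0.26 in the KO stem group, while the WT differentiated libraries lay within 0.05 of their mean. The 12 fibroblast and muscle markers, of which 3 passed the filter, summed to 22290.1 in WT stem library 1 and 642 in KO stem library 3, against 52.1 to 168 in the other 10 libraries. Vim (13196) and Col1a1 (4788) led this sum, while Dcn, Lum and Thy1 were at 0 in WT stem library 1. The part of such cells in the low values of the members was not tested. The plot of deviations by library shows these offsets.

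**Figure D1:**
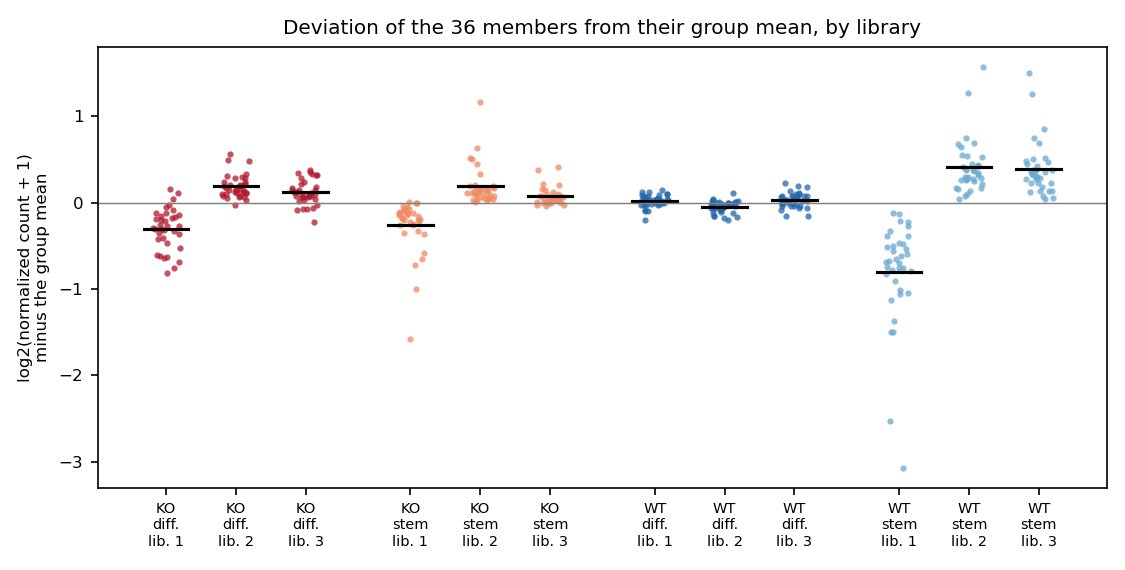
Deviation of each of the 36 members (points) from its own group mean, on the log2(normalized count + 1) scale, in each of the 12 libraries, with the mean over the members as a black line. WT stem library 1 has its line at -0.80 and its 36 points all below 0, and KO differentiated and KO stem library 1 have theirs at -0.31 and -0.26.

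The members varied together. The deviation of each member from its group means was correlated with the mean deviation of the other 35 members, as a description over 12 libraries that share the same depths and scaling. Pearson's r had a median of 0.97 over the members and was above 0.8 for 32 of them. Without WT stem library 1 the median was 0.87, and 25 members were above 0.8. P4ha1, which encodes a collagen prolyl hydroxylase subunit, followed the others most closely (r = 0.997, and 0.984 without WT stem library 1). Ddit4 (r = 0.255) and P4ha2 (r = -0.04) followed the others least without that library. The spread within groups differed in the same way: the median coefficient of variation of the members was 16.6% in KO differentiated, 10.01% in KO stem, 6.04% in WT differentiated and 35.5% in WT stem libraries, against 8.99%, 8.01%, 6.39% and 12.6% for all tested genes.

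Per kb of exon the levels of the members spanned a wide range. Gapdh was highest, at 80706 normalized counts per kb on average over the 12 libraries, followed by Aldoa (52710.2), Pgk1 (45356), Pkm (44829.8 per kb) and Ldha (38702). Enzymes of the glycolytic chain thus filled the top of the order, and Egln3, at 13335 per kb, was the highest member outside it. Pfkfb4 was lowest, at 53.8 per kb. Between the lowest and the highest library, Adm spanned 58.3-fold, Ndrg1 13.9-fold, Bnip3 5.61-fold and Ankrd37 5.50-fold, while Hk1 spanned 1.63-fold.

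Withdrawal of Wnt-3A was examined first, by setting differentiated organoids against stem cells of the same genotype. In KO organoids 21 of 36 members fell and 2 rose, while 33.6% of all tested genes fell and 34.1% rose. In WT organoids 7 members fell and 3 rose, while 35.9% of all tested genes fell and 36.3% rose. The median log2 change of the members was -0.68 in KO and -0.18 in WT, against 0.01 in both genotypes for all tested genes. Without WT stem library 1 the WT median was -0.55, and 22 members fell and 3 rose in WT (36% and 36.6% of all tested genes). The spread shared by the fit also narrowed there, and 28 members then fell and 2 rose in KO (35.8% and 36.5%). All 7 members that fell in WT also fell in KO, and without WT stem library 1 the shared number was 20 of 28 in KO and 20 of 22 in WT. Leaving out KO differentiated library 1 left 15 falling members in KO, and leaving out KO stem library 2 left 16. Of the 21 falls in KO, 13 were called in every such repeat, as were 5 of the 7 in WT. Same-numbered KO libraries deviated together, and with the replicate number as a block within each genotype 22 members fell in KO, the added one being Bnip3.

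The libraries of the conditions did not overlap for 28 members that were lower and 2 that were higher in KO differentiated organoids (37.2% and 37.1% of all tested genes). In WT the corresponding numbers were 6 and 3 (37.3% and 37.8%). Over these comparisons the summed level of 6 stem cell and cycling markers was 10165 to 10661 in KO differentiated against 35607 to 48036 in KO stem libraries, and 6112 to 6399.8 in WT differentiated against 43702 to 54081 in WT stem libraries. That of 6 absorptive colonocyte markers was 13876 to 40241 against 60.9 to 92.6 in KO, and 88277 to 140580.0 against 372 to 608 in WT. The part of this shift in cell types in the changes below was not tested.

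**Figure D2:**
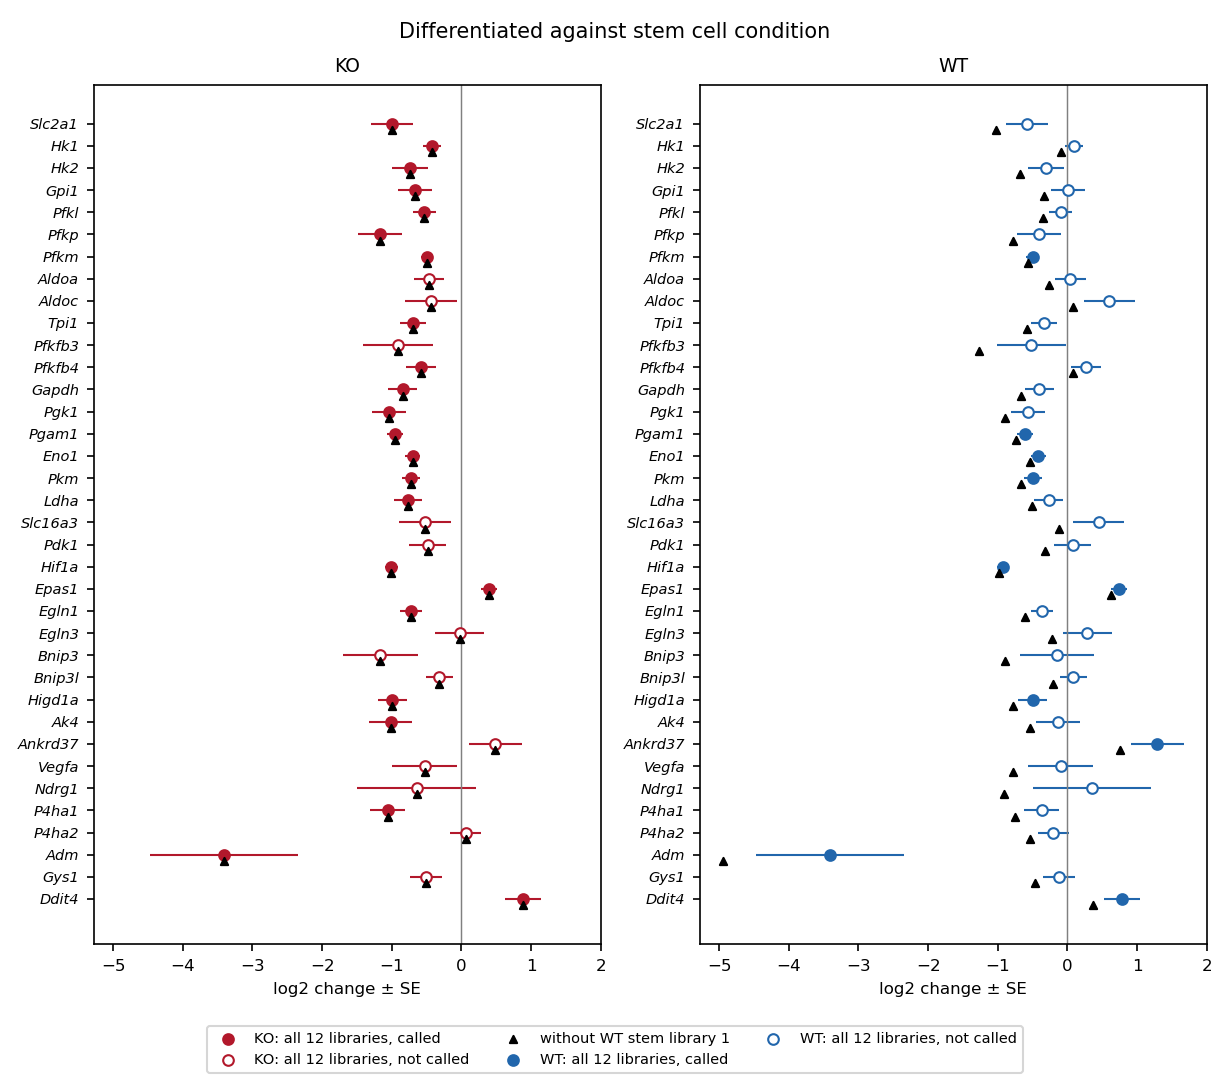
log2 change (± SE) of the 36 members in differentiated against stem cell condition, in KO (left) and WT (right). Filled circles were called and open circles were not, and black triangles give the change without WT stem library 1. In WT the triangles lie left of the circles for all 36 members, and Adm, at -3.41 in both genotypes, lies farthest from 0.

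Glucose enters through GLUT1, encoded by Slc2a1 (ENSMUSG00000028645, chr4:119108711-119137983, + strand). Slc2a1 had 21302, 23246 and 21625 normalized counts in KO differentiated libraries, against 34136, 55426 and 45094 in KO stem libraries. The groups did not overlap, and the level in KO differentiated organoids was 0.501 of that in KO stem organoids (log2 change -0.998 ± 0.30, adjusted p = 0.0122). WT differentiated libraries had 32489, 28717 and 28592, against 23656, 60387 and 61676 in WT stem libraries, of which library 1 lay below all differentiated ones. The WT change was not called (log2 change -0.57 ± 0.30, adjusted p = 0.109), and without WT stem library 1 it was (log2 change -1.03, adjusted p = 1.30e-04). The KO call was lost without KO stem library 2 (log2 change -0.83, adjusted p = 0.0522).

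The hexokinases trap glucose as glucose 6-phosphate, HK1 being the broadly expressed form and HK2 the one known to respond to HIF-1. Hk2 had 6091, 7569 and 7235 in KO differentiated against 9059, 13382 and 12888 in KO stem libraries (log2 change -0.74 ± 0.26, adjusted p = 0.0248). The WT values were 10582, 9891 and 10609.6 in differentiated against 7553, 17200.0 and 16064 in stem libraries, an overlap made by library 1 (log2 change -0.30 ± 0.26, adjusted p = 0.312, and log2 change -0.68, adjusted p = 0.00173 without it). Hk1 fell in KO (log2 change -0.42 ± 0.13, adjusted p = 0.0141), with 15389.5, 18414 and 17346 in KO differentiated against 22228, 23478 and 22646 in KO stem libraries. The WT change of Hk1 was 0.10 ± 0.13 (adjusted p = 0.514, and -0.09 without WT stem library 1). Both KO calls depended on single libraries, Hk2 losing its call without KO stem library 2 (adjusted p = 0.0846), KO stem library 3 or KO differentiated library 1, and Hk1 without KO differentiated library 1 (adjusted p = 0.0544). Hk1 made up 63.2% of the summed hexokinase level per kb in KO differentiated organoids, against 57.7% in WT differentiated organoids, with no overlap between the libraries (exact two-sided permutation p = 0.1, the smallest that 3 against 3 libraries can give). Hk1os and Gm17034 lie opposite Hk1 and Hk2, and since the strand use of the counting is not stated, their reads cannot be told apart from those of the hexokinases. Genes on the opposite strand also overlap Slc2a1, Gpi1, Pfkp, Pfkm, Aldoa, Tpi1, Pfkfb3, Gapdh, Hif1a, Bnip3, Higd1a, Ankrd37, Ndrg1, Adm and Gys1. The same limit holds for these members.

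Upper glycolysis runs from glucose 6-phosphate isomerase (Gpi1) over phosphofructokinase, its main control point, to aldolase and triosephosphate isomerase (Tpi1). In KO 5 of these 7 members fell (33.6% of all tested genes) and in WT 1 did (35.9%). The numbers were 6 in KO and 4 in WT without WT stem library 1, and without KO differentiated library 1 only 3 fell in KO. Pfkp, the platelet-type phosphofructokinase, had 6161, 12084 and 12040.5 in KO differentiated libraries, against 17191, 24706 and 23936 in KO stem libraries. That was a ratio of 0.445 with no overlap (log2 change -1.17 ± 0.32, adjusted p = 0.00631), and the call held without each library in turn. In WT, Pfkp had 16935, 15133 and 17281 in differentiated against 12932, 28086 and 28214 in stem libraries (log2 change -0.40 ± 0.32, adjusted p = 0.268, and log2 change -0.78, adjusted p = 0.0191 without WT stem library 1). Pfkm, the muscle type, gave the most even result of this group, with 927, 1084 and 1113 in KO differentiated against 1462, 1508 and 1434 in KO stem libraries, and 845, 901 and 968 in WT differentiated against 1175, 1319 and 1346 in WT stem libraries. It fell by 0.50 on the log2 scale in both genotypes (adjusted p = 3.21e-04 in KO and 2.67e-04 in WT), and WT stem library 1 did not overlap the differentiated libraries. Senp1 lies opposite Pfkm, and its reads cannot be told apart where both genes overlap.

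Pfkl, the liver type, carried most of the phosphofructokinase level per kb, with 74.7% in KO differentiated against 68.3% in KO stem organoids, and 71.2% in WT differentiated against 66.2% in WT stem organoids. Pfkl fell in KO (log2 change -0.53 ± 0.17, adjusted p = 0.0149), as did Gpi1 (log2 change -0.67 ± 0.24, adjusted p = 0.0305) and Tpi1 (log2 change -0.70 ± 0.19, adjusted p = 0.00573). Without KO differentiated library 1 the calls of Pfkl (adjusted p = 0.0542) and Gpi1 (adjusted p = 0.121) were lost, that of Gpi1 also without KO stem library 2 or 3, and that of Tpi1 was not. In WT the changes of Pfkl, Gpi1 and Tpi1 were -0.09, 0.01 and -0.33, none of them called. Leaving out WT stem library 1, they were -0.35 (adjusted p = 0.0021), -0.33 (adjusted p = 0.0685) and -0.58 (adjusted p = 0.00139), so that Pfkl and Tpi1 were called in WT too. Aldoa, which accounted for 97.6% to 98.0% of the summed level per kb of Aldoa and Aldoc in all groups but WT differentiated (97.1%), was not called in either genotype (log2 change -0.46 ± 0.22, adjusted p = 0.082 in KO and log2 change 0.04 ± 0.22, adjusted p = 0.867 in WT). Aldoc, the brain-type aldolase, also passed in neither (log2 change -0.43 ± 0.37 in KO and 0.60 ± 0.37 in WT). Aldoa was called in KO in the same repeat (adjusted p = 0.0063) and its WT change was -0.27 (adjusted p = 0.109), that of Aldoc being 0.08.

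PFKFB enzymes set the level of fructose 2,6-bisphosphate, the strongest activator of phosphofructokinase, and Pfkfb3 and Pfkfb4 are known HIF targets. Pfkfb3 had 2351, 2752 and 2389 in KO differentiated against 2833, 6724 and 5399 in KO stem libraries, and 2576, 2545 and 2455 in WT differentiated against 1279.8, 6045 and 6079 in WT stem libraries. Stem libraries 2 and 3 of both genotypes lay well above the rest, and library 1 of each lay near or below the differentiated level. Neither change was called (log2 change -0.91 ± 0.50, adjusted p = 0.129 in KO and log2 change -0.52 ± 0.50, adjusted p = 0.372 in WT), and without WT stem library 1 both were (adjusted p = 0.00546 in KO and 0.00143 in WT). Pfkfb4 was low, with 139, 211 and 246 in KO differentiated against 276, 296 and 298 in KO stem libraries. It fell there (log2 change -0.58 ± 0.22, adjusted p = 0.0321), though not without KO differentiated library 1 (adjusted p = 0.133) or any 1 of the KO stem libraries, and had a log2 change of 0.27 ± 0.22 in WT (adjusted p = 0.282).

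Lower glycolysis yields ATP and pyruvate, and all 5 of its members fell in KO (33.6% of all tested genes) and 3 in WT (35.9%). All 5 fell in both genotypes without WT stem library 1. Pgk1, which encodes phosphoglycerate kinase (ENSMUSG00000062070, chrX:106187100-106203699, + strand), had 49309.6, 71931 and 67873 in KO differentiated libraries, against 111716, 142726 and 131298 in KO stem libraries. The level was 0.486 of that in stem organoids (log2 change -1.04 ± 0.24, adjusted p = 0.0024). In WT it had 82642, 83338 and 87241 in differentiated against 78063, 153183 and 162032 in stem libraries, library 1 alone overlapping (log2 change -0.56 ± 0.24, adjusted p = 0.053, and log2 change -0.90, adjusted p = 2.78e-04 without it). Gapdh, the glyceraldehyde 3-phosphate dehydrogenase often used as a control gene, followed the same course (log2 change -0.84 ± 0.20, adjusted p = 0.00309 in KO and log2 change -0.40 ± 0.20, adjusted p = 0.0953 in WT, called at log2 change -0.67, adjusted p = 0.00169 without WT stem library 1). With 181115, 253006 and 247743 in KO differentiated against 370227, 435827 and 406670.0 in KO stem libraries, Gapdh libraries of the conditions did not overlap in KO.

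The last steps changed in both genotypes and in every repeat that left out 1 library. Pgam1, phosphoglycerate mutase, had 23864, 30411 and 28270.3 in KO differentiated against 52758, 54178 and 51994 in KO stem libraries (log2 change -0.95 ± 0.11, adjusted p = 1.46e-05). Its WT differentiated libraries had 33176, 33848 and 32824, against 42114, 55701 and 55686 in WT stem libraries (log2 change -0.61 ± 0.11, adjusted p = 3.99e-04). No library of one condition reached those of the other, and the difference between the genotypes in this change was not called (log2 -0.34 ± 0.16, adjusted p = 0.185). Eno1, enolase, fell by 0.70 on the log2 scale in KO (adjusted p = 1.71e-04) and by 0.42 in WT (adjusted p = 0.00537). Pkm, the pyruvate kinase of proliferating and most adult tissues (ENSMUSG00000032294, chr9:59656368-59679375, + strand), had 154502, 175198 and 176224 in KO differentiated against 279340.0, 282889 and 271058 in KO stem libraries. The WT values were 188883, 183552 and 184517 in differentiated against 207597, 291197 and 295368 in stem libraries. Pkm thus fell to 0.606 of the stem level in KO (log2 change -0.72 ± 0.12, adjusted p = 3.01e-04) and to 0.71 in WT (log2 change -0.49 ± 0.12, adjusted p = 0.00368). GENCODE lists 2 named pseudogenes each for Aldoa, Gapdh, Pgk1, Pgam1 and Ldha, so their counts are uncertain where reads fit more than 1 copy.

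The other pyruvate kinase gene rose. Pklr, the liver and red cell form, had 5241, 5889 and 6568 in KO differentiated against 1288, 1104 and 1339.6 in KO stem libraries, and 9165, 9341 and 8711 in WT differentiated against 1761, 2293 and 1998 in WT stem libraries. It rose by 2.24 ± 0.11 in KO (adjusted p = 1.67e-08) and by 2.18 ± 0.11 in WT (adjusted p = 1.19e-08) on the log2 scale. Per kb, Pklr made up 5.12% of Pkm plus Pklr in KO differentiated against 0.688% in KO stem organoids, and 7.02% against 1.2% in WT. Pkm remained the main form in all 12 libraries.

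Lactate dehydrogenase A, encoded by Ldha (ENSMUSG00000063229, chr7:46841475-46855627, + strand), reduces pyruvate to lactate. Ldha had 63070.3, 96639.6 and 97153 in KO differentiated libraries, against 131893, 150205 and 147376 in KO stem libraries, with no overlap (log2 change -0.77 ± 0.20, adjusted p = 0.00561). In WT it had 129115, 119015 and 132325 in differentiated against 109026, 177002 and 184438 in stem libraries, library 1 being the lowest of all 6 (log2 change -0.27 ± 0.20, adjusted p = 0.251, and log2 change -0.51, adjusted p = 0.0161 without it). Slc16a3, the lactate exporter MCT4, passed in neither genotype (log2 change -0.52 ± 0.37, adjusted p = 0.228 in KO and log2 change 0.45 ± 0.37, adjusted p = 0.288 in WT). Pdk1, a kinase that shuts off pyruvate dehydrogenase, did not pass either (log2 change -0.48 ± 0.27, adjusted p = 0.131 in KO and log2 change 0.08 ± 0.27, adjusted p = 0.808 in WT). Without WT stem library 1 both were called in KO (adjusted p = 0.0103 for Slc16a3 and 0.00738 for Pdk1) and not in WT, where the changes were -0.11 and -0.31.

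The genes of the HIF alpha subunits moved in opposite directions. Hif1a, encoding HIF-1alpha (ENSMUSG00000021109, chr12:73901375-73947530, + strand), had 3766, 3719.7 and 3472 in KO differentiated libraries, against 6368, 7974 and 7733 in KO stem libraries. WT differentiated libraries had 4255, 4111 and 4545, against 7469, 8604 and 8448 in WT stem libraries. The conditions stood well apart in both genotypes, WT stem library 1 included, and Hif1a fell to 0.499 of the stem level in KO (log2 change -1.004 ± 0.09, adjusted p = 1.45e-06) and to 0.527 in WT (log2 change -0.92 ± 0.09, adjusted p = 2.00e-06). Of all members it had the smallest adjusted p in both genotypes, and the call held without any single library. Its protein level, which oxygen controls, was not measured.

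Epas1, encoding HIF-2alpha (ENSMUSG00000024140, chr17:86753700-86833410, + strand), had 2335, 3009 and 3077 in KO differentiated against 1969, 2119 and 2269 in KO stem libraries. It had 3069.8, 3082 and 3066 in WT differentiated against 1588, 2077 and 1901 in WT stem libraries, the differentiated WT libraries being almost equal. Epas1 rose in KO (log2 change 0.40 ± 0.12, adjusted p = 0.00973) and in WT (log2 change 0.74 ± 0.12, adjusted p = 1.27e-04), also without each library in turn. Per kb, Hif1a made up 55.4% ± 4.55 (SD, n = 3) of the summed Hif1a and Epas1 level in KO differentiated organoids, against 76.6% ± 1.37 in KO stem organoids. In WT the share was 57% ± 1.3 in differentiated against 80.7% ± 0.989 in stem organoids. The difference was -21.3 percentage points in KO and -23.7 in WT, without overlap between the libraries (exact two-sided permutation p = 0.1 in each genotype, the smallest possible for 3 against 3). The shares of KO stem and WT stem libraries did not overlap either, while those of KO and WT differentiated libraries did (exact permutation p = 0.1 and 0.6).

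EGLN1 and EGLN3 are the prolyl hydroxylases that mark HIF alpha for degradation, and Egln3 is itself a strong HIF target. Egln1 fell in KO, with 3875, 4537 and 4268 in differentiated against 6616, 7231 and 7026 in stem libraries (log2 change -0.72 ± 0.16, adjusted p = 0.00188). In WT its change was -0.37 ± 0.16 (adjusted p = 0.0575, and 7.66e-05 at -0.60 without WT stem library 1). Egln3 was called in neither genotype. It had 24605, 43188 and 41706 in KO differentiated against 30111, 40934 and 37569 in KO stem libraries, and 35639, 34294 and 38927 in WT differentiated against 14714, 42775 and 41524 in WT stem libraries, and the ranges overlapped in both genotypes (log2 change -0.02 ± 0.35, adjusted p = 0.961 in KO and log2 change 0.29 ± 0.35, adjusted p = 0.479 in WT). The WT change of Egln3 turned to -0.22 without WT stem library 1 (adjusted p = 0.373). Per kb, Egln3 held 91.8% of the Egln1 plus Egln3 level in KO differentiated and 87.4% in KO stem organoids, and 90.1% and 84.9% in the WT groups.

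**Figure D3:**
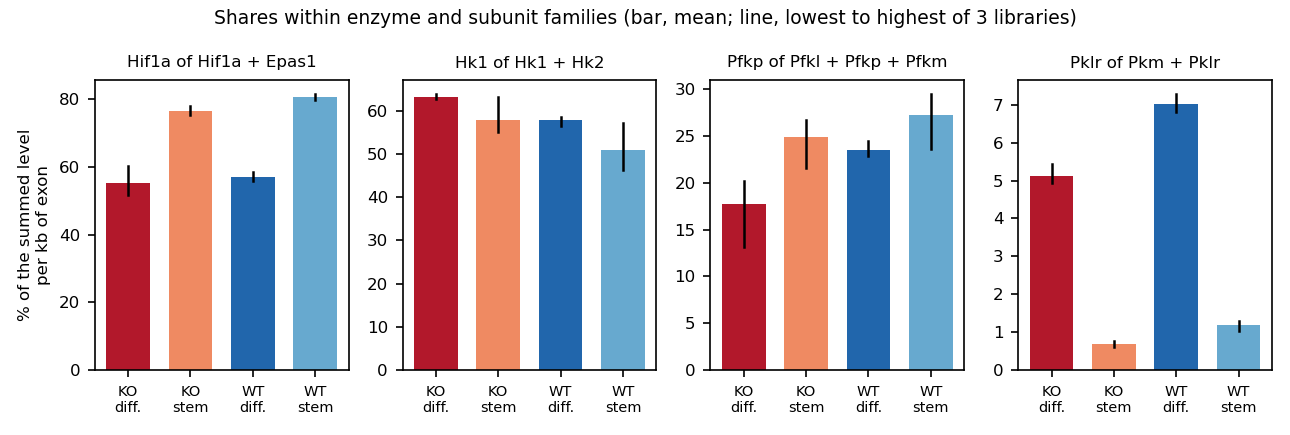
Share (%) of Hif1a, Hk1, Pfkp and Pklr in the summed level per kb of exon of their family, as the mean (bar) and the lowest to highest of 3 libraries (line) for KO differentiated, KO stem, WT differentiated and WT stem organoids. The Hif1a share is 55.4% and 57.0% in the differentiated groups, against 76.6% and 80.7% in the stem groups, and the Pklr share 5.12% and 7.02% against 0.688% and 1.2%.

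Of the 4 mitochondrial members, 2 fell in KO and 1 in WT (33.6% and 35.9% of all tested genes). These counts rested on single libraries, with 4 in KO and 2 in WT without WT stem library 1, 1 in KO without KO differentiated library 1, and 0 in WT in 10 of 12 repeats that left out 1 library. Higd1a, which encodes a small protein of the inner mitochondrial membrane that associates with the respiratory chain (ENSMUSG00000038412, chr9:121848563-121858362, - strand), had 1732, 2399 and 2207 in KO differentiated against 3595, 4633 and 4340.4 in KO stem libraries. It fell to 0.503 of the stem level there (log2 change -0.99 ± 0.21, adjusted p = 0.00126). The WT values were 3711, 3158 and 3702 in differentiated against 3357, 5934 and 6120.1 in stem libraries and was called at the edge (log2 change -0.50 ± 0.21, adjusted p = 0.0492), losing the call without most single libraries, with adjusted p up to 0.183 without WT stem library 3. Ak4, a mitochondrial adenylate kinase, had 3691, 6964 and 7131 in KO differentiated against 10285, 12420.1 and 11849.5 in KO stem libraries, KO differentiated library 1 being far below the others (log2 change -1.02 ± 0.31, adjusted p = 0.0131, and log2 change -0.70, adjusted p = 0.0566 without that library). Its WT change was -0.14 ± 0.31 (adjusted p = 0.712, and log2 change -0.53, adjusted p = 0.0641 without WT stem library 1).

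Bnip3 and Bnip3l encode receptors that direct mitochondria to autophagy. Bnip3 had 2032, 4825 and 3554 in KO differentiated against 4904, 10402 and 7726 in KO stem libraries, and 5623, 5092 and 6532 in WT differentiated against 2249.9, 9937 and 11408 in WT stem libraries. It varied by more than 2-fold within 3 of the 4 groups and was not called (log2 change -1.17 ± 0.54, adjusted p = 0.0736 in KO and log2 change -0.15 ± 0.54, adjusted p = 0.814 in WT), although the KO libraries did not overlap and its adjusted p with the replicate block within genotype was 0.0254. Bnip3 was called in both genotypes without WT stem library 1 (adjusted p = 0.00588 in KO, and log2 change -0.90, adjusted p = 0.0373 in WT). Bnip3l was steadier, with changes of -0.32 ± 0.20 in KO (adjusted p = 0.179) and 0.09 ± 0.20 in WT (adjusted p = 0.712), neither of them called. Without that library Bnip3l was called in KO (adjusted p = 0.00984) and its WT change was -0.21 (adjusted p = 0.088).

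Among the other hypoxia targets Adm stood out. Adm encodes adrenomedullin, a secreted peptide that acts on vessels and epithelia (ENSMUSG00000030790, chr7:110627661-110629820, + strand). It had 315, 742 and 647 in KO differentiated libraries, against 1892, 12711 and 7541 in KO stem libraries. WT differentiated libraries had 615, 535 and 595, against 737, 18402 and 17535 in WT stem libraries. The differentiated libraries were low in both genotypes, and library 1 of each stem group was also low, in WT barely above the differentiated libraries. The ratio of differentiated to stem was 0.0943 in KO (log2 change -3.41 ± 1.06, adjusted p = 0.014) and 0.0938 in WT (log2 change -3.41 ± 1.06, adjusted p = 0.0127). Without WT stem library 1 the WT change was -4.95 (adjusted p = 3.57e-05). Leaving out 1 of the high stem libraries removed the call, with adjusted p of 0.0588 without KO stem library 2, 0.0557 without WT stem library 2 and 0.0561 without WT stem library 3.

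P4ha1, the collagen prolyl hydroxylase subunit named above, had 2329, 3325 and 3075 in KO differentiated against 5146, 6700.3 and 6268 in KO stem libraries (log2 change -1.06 ± 0.26, adjusted p = 0.00321). In WT it had 3904, 3812 and 3770.5 in differentiated against 2928, 6413 and 6443 in stem libraries (log2 change -0.37 ± 0.26, adjusted p = 0.214, and log2 change -0.75, adjusted p = 6.05e-04 without WT stem library 1). Its paralog P4ha2 was called in neither genotype (log2 change 0.07 ± 0.22, adjusted p = 0.809 in KO and log2 change -0.20 ± 0.22, adjusted p = 0.428 in WT), and without WT stem library 1 it was called lower in WT (log2 change -0.53, adjusted p = 0.00249). Vegfa, the vascular endothelial growth factor (ENSMUSG00000023951, chr17:46016993-46032369, - strand), had 4566, 6371 and 5786 in KO differentiated against 5034, 10818 and 9187 in KO stem libraries, and 6887, 7613 and 7720.4 in WT differentiated against 3054, 12702 and 12785 in WT stem libraries. The groups overlapped through library 1 of each stem group, and neither change was called (log2 change -0.52 ± 0.47, adjusted p = 0.339 in KO and log2 change -0.10 ± 0.47, adjusted p = 0.859 in WT, -0.78 with adjusted p = 0.0181 without WT stem library 1).

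Ndrg1, a stress-induced gene of epithelial differentiation, had 6056, 15092 and 13336 in KO differentiated against 8297, 25774 and 21614 in KO stem libraries, and 21489.6, 17049.9 and 20778 in WT differentiated against 2677, 37100.5 and 36853 in WT stem libraries. The SE of its change, 0.85, exceeded the change in both genotypes (-0.64 in KO and 0.35 in WT), so that no difference could be shown. The WT change turned to -0.91 without WT stem library 1 (adjusted p = 0.0981). Gys1, the glycogen synthase of muscle and other tissues, also passed in neither (log2 change -0.51 ± 0.23, adjusted p = 0.0674 in KO and log2 change -0.12 ± 0.23, adjusted p = 0.658 in WT). It was called in both without WT stem library 1 (adjusted p = 5.35e-04 in KO, and log2 change -0.47, adjusted p = 0.00196 in WT). Ruvbl2 overlaps Gys1 on the opposite strand.

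Ddit4 and Ankrd37 went the other way. Ddit4, which encodes the mTORC1 inhibitor REDD1 (ENSMUSG00000020108, chr10:59949669-59951834, - strand), had 25252, 22922 and 22125 in KO differentiated against 10597, 13879 and 13806 in KO stem libraries. The WT values were 22507, 21346 and 19945 in differentiated against 6952, 16347 and 16495 in stem libraries. All differentiated libraries lay above all stem libraries, and Ddit4 rose 1.85-fold in KO (log2 change 0.89 ± 0.26, adjusted p = 0.0112) and 1.72-fold in WT (log2 change 0.78 ± 0.26, adjusted p = 0.0191). The WT change was 0.37 without WT stem library 1 (adjusted p = 0.011), and the call was lost without WT differentiated library 1 (adjusted p = 0.0545). Ankrd37, an ankyrin repeat gene known as a HIF-1 target (ENSMUSG00000050914, chr8:45996902-46005707, - strand), had 696, 1254 and 1381 in KO differentiated against 634, 847 and 813 in KO stem libraries and was not called there (log2 change 0.49 ± 0.38, adjusted p = 0.277). In WT it had 2227, 1869 and 2276 in differentiated against 414, 1267 and 1231 in stem libraries and rose 2.45-fold (log2 change 1.29 ± 0.38, adjusted p = 0.00952, and log2 change 0.76, adjusted p = 0.0166 without WT stem library 1). The difference between the genotypes in this change was not called (-0.80 ± 0.54, adjusted p = 0.365). Ufsp2 and Lrp2bp overlap Ankrd37 on the opposite strand, so part of its reads may belong to them.

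**Figure D4:**
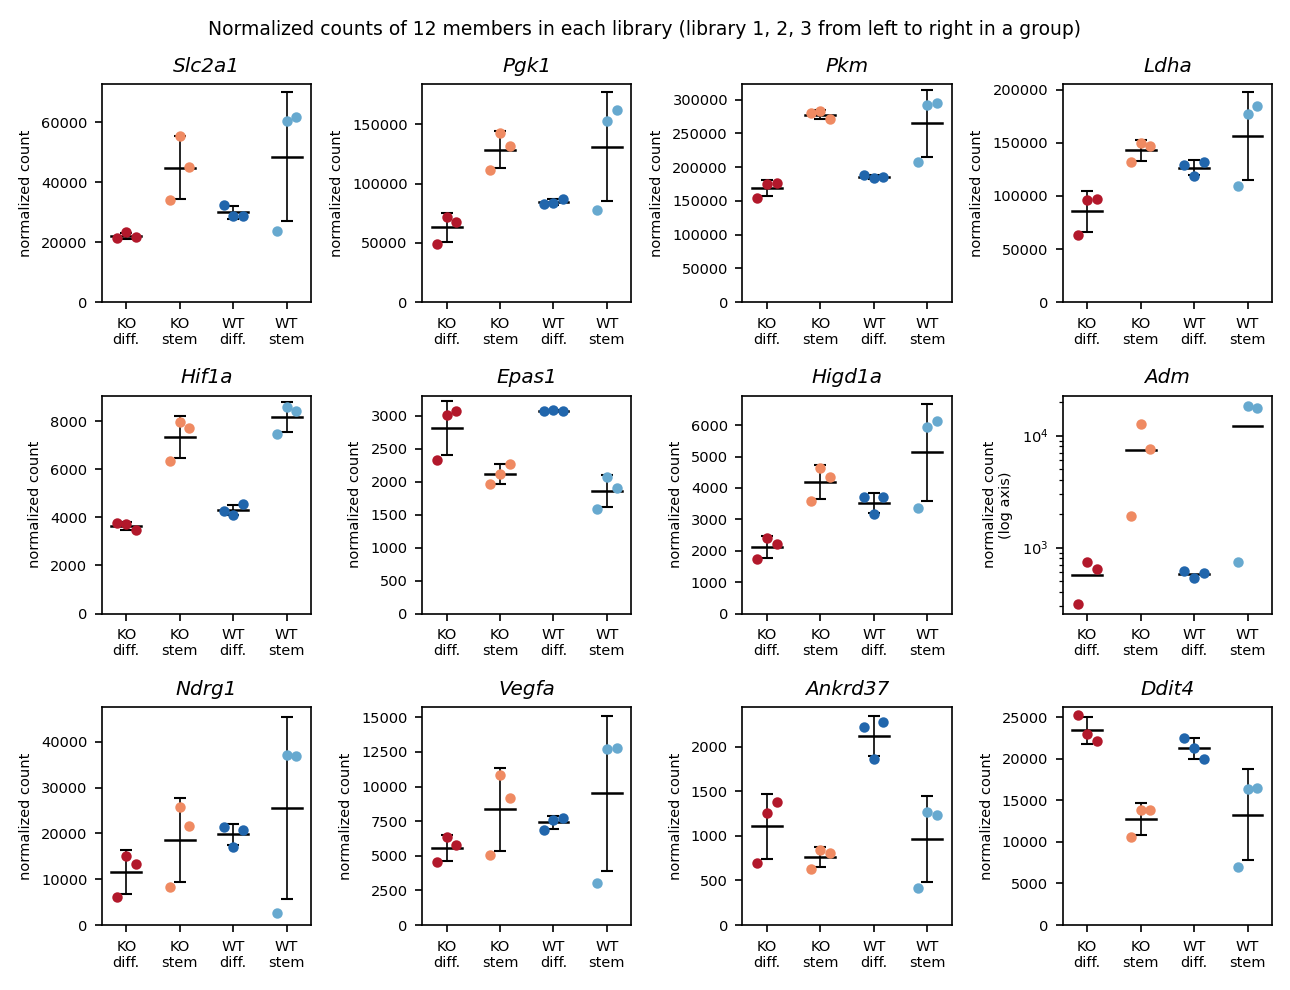
Normalized counts of 12 members in each library (points) with the mean (line) and SD (bars) of each group, on linear axes from 0 except for Adm, which is on a log axis without SD. Hif1a is low and Epas1 high in both differentiated groups, and the leftmost WT stem point, library 1, lies below the other 2 in every panel.

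KO was then compared with WT within each culture condition. In differentiated organoids 3 of 36 members fell and none rose, while 13.9% of all tested genes fell and 13.8% rose. The 3 were Higd1a, Ldha and Pfkfb4. Of the 36 changes 33 were negative, with a median log2 change of -0.39 against 0.02 for all tested genes. For 28 members all KO libraries lay below all WT libraries (26.4% of all tested genes), and for 1, P4ha2, all lay above (26.8%). The members share libraries and vary together, so this count rests on 3 libraries a group rather than on 28 separate results.

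Higd1a had 1732, 2399 and 2207 in KO differentiated libraries, against 3711, 3158 and 3702 in WT differentiated libraries, a ratio of 0.596 (log2 change -0.75 ± 0.21, adjusted p = 0.022). Ldha had 63070.3, 96639.6 and 97153, against 129115, 119015 and 132325 in WT (log2 change -0.59 ± 0.20, adjusted p = 0.0496). Pfkfb4 had 139, 211 and 246, against 264, 296 and 354 in WT (log2 change -0.64 ± 0.22, adjusted p = 0.0469). KO libraries were lower than WT libraries throughout for these genes, KO library 1 being the lowest for each. Each call was lost without KO differentiated library 1, with adjusted p of 0.0919 for Higd1a, 0.191 for Ldha and 0.176 for Pfkfb4. The number of falling members was also 0 without WT differentiated library 1 or 3, and it was 1 (Higd1a) without KO differentiated library 2, WT differentiated library 2, or KO stem library 2 or 3.

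The number of calls in this comparison moved when libraries inside or outside it were left out. Without WT stem library 1, which is not part of the comparison, the changes stayed as they were, and 23 members fell and P4ha2 rose (19% and 19.4% of all tested genes). Without KO differentiated library 1 no member fell and Pfkm rose, and the median was -0.26. Changes larger than those of the 3 called members, but not called with all libraries, were found for Ankrd37 (log2 change -0.99 ± 0.38, adjusted p = 0.074), Slc16a3 (log2 change -0.96 ± 0.37, adjusted p = 0.0734), Ndrg1 (log2 change -0.88 ± 0.85, adjusted p = 0.468), Bnip3 (log2 change -0.81 ± 0.54, adjusted p = 0.284), Pfkp (-0.77) and Ak4 (-0.76). Slc16a3 had 4421, 7321 and 6377 in KO differentiated libraries, against 12314, 11233 and 11012 in WT differentiated libraries. These groups were well apart, and Slc16a3 was called once WT stem library 1 was left out (adjusted p = 0.0016).

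Of the genes followed throughout, Slc2a1 (log2 change -0.44 ± 0.30, adjusted p = 0.303), Hif1a (log2 change -0.24 ± 0.09, adjusted p = 0.0663), Pkm (log2 change -0.14 ± 0.12, adjusted p = 0.424), Epas1 (log2 change -0.14 ± 0.12, adjusted p = 0.387) and Vegfa (log2 change -0.42 ± 0.47, adjusted p = 0.532) were not called between differentiated KO and WT organoids. The KO libraries of Slc2a1, Hif1a, Pkm and Vegfa nevertheless lay below all WT libraries. P4ha2, not called either (log2 change 0.45 ± 0.22, adjusted p = 0.157), had 3214, 2995 and 2459.7 in KO differentiated against 2329, 2126 and 1885 in WT differentiated libraries. Markers of mature cells moved with this comparison: the absorptive colonocyte markers summed to 13876 to 40241 in KO against 88277 to 140580.0 in WT differentiated libraries, and all 6 were called lower. KO library 1, the lowest for 32 members, was also the lowest of the KO differentiated libraries for this sum and for that of 5 goblet cell markers (7278, against 15978 and 19385 in libraries 2 and 3). Stem cell and cycling markers summed to 10165 to 10661 in KO against 6112 to 6399.8 in WT. The part of these cell types in the lower values of the members was not tested.

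**Figure D5:**
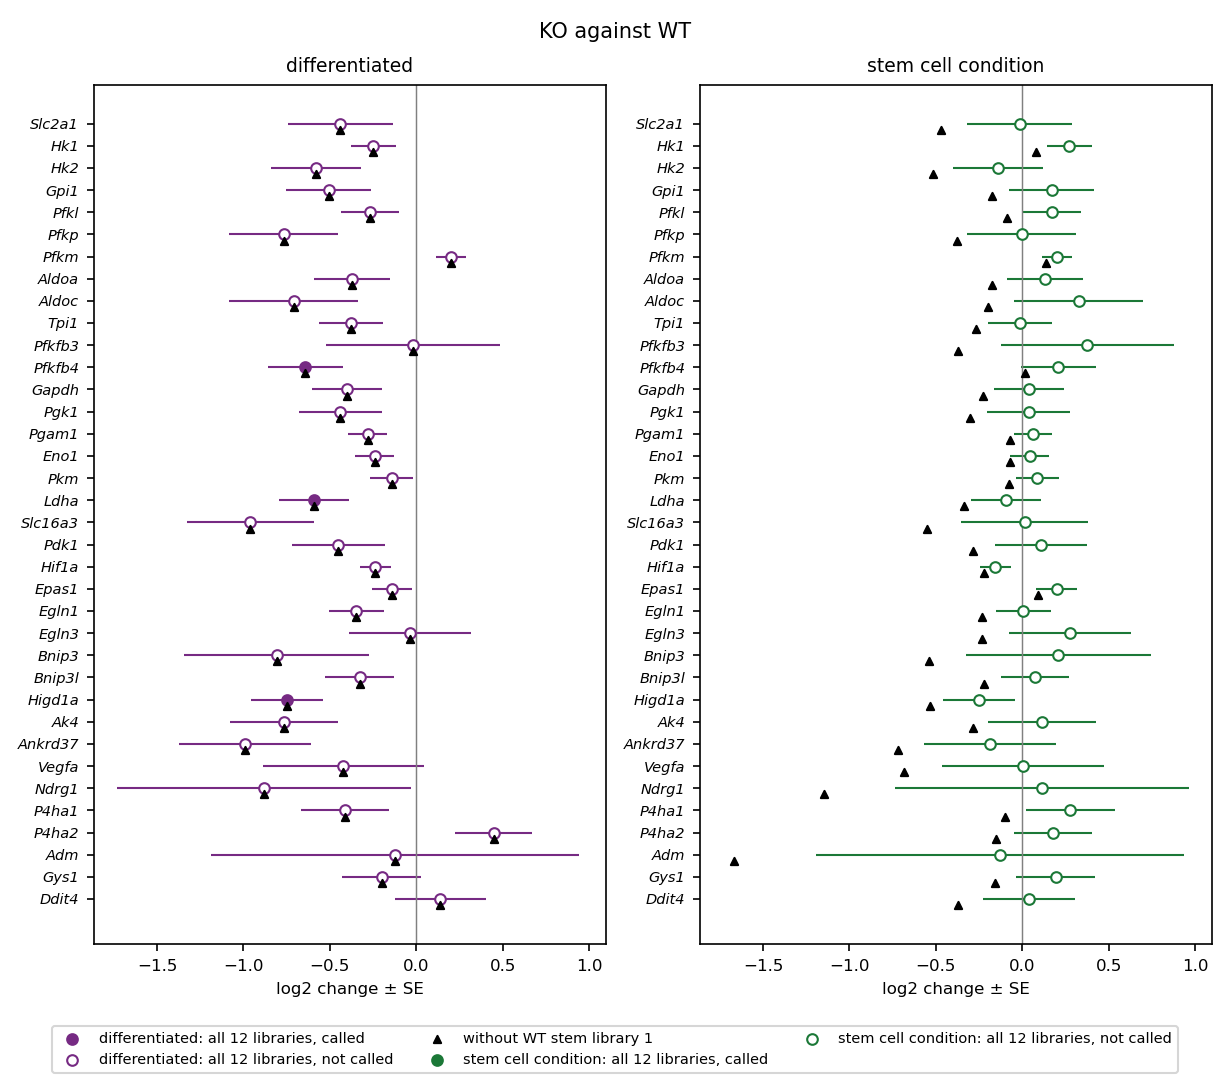
log2 change (± SE) of the 36 members in KO against WT organoids, in differentiated (left) and stem cell condition (right). Filled circles were called, open circles were not, and black triangles give the change without WT stem library 1. In the differentiated condition 33 circles lie left of 0, and in the stem cell condition 9 circles but 32 triangles do.

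In the stem cell condition no member was called in either direction, while 3.48% of all tested genes rose and 3.09% fell in KO. The limma fit gave 1 member at an unadjusted p under 0.05, and edgeR and DESeq2 on the recovered reads called 0 members as well. Over all tested genes limma called 517 higher and 459 lower, the same numbers with recomputed size factors, and 573 and 346 with quantile normalization. The split also differed between tools, which change the model as well as the scaling (DESeq2 also tested fewer genes, 13959), with 635 and 308 in edgeR and 840 and 1144 in DESeq2. The direction turned with 1 library. With all libraries 27 of 36 changes were positive and their median was 0.08, whereas without WT stem library 1 32 were negative, with a median of -0.23, 1 member fell and 0 rose (4.77% and 4.42% of all tested genes). That member was Higd1a, with 3595, 4633 and 4340.4 in KO stem against 3357, 5934 and 6120.1 in WT stem libraries (log2 change -0.53, adjusted p = 0.0413 without WT stem library 1, and log2 change -0.25 ± 0.21, adjusted p = 0.485 with it). Ndrg1 had 8297, 25774 and 21614 in KO stem against 2677, 37100.5 and 36853 in WT stem libraries, and its change was 0.11 ± 0.85 with and -1.15 without WT stem library 1 (adjusted p = 0.134).

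Hif1a (log2 change -0.16 ± 0.09, adjusted p = 0.299), Epas1 (log2 change 0.20 ± 0.12, adjusted p = 0.316), Slc2a1 (log2 change -0.02 ± 0.30, adjusted p = 0.982), Ldha (log2 change -0.10 ± 0.20, adjusted p = 0.811), Pkm (log2 change 0.09 ± 0.12, adjusted p = 0.705) and Vegfa (log2 change 0.00 ± 0.47, adjusted p = 0.998) were not called between KO and WT stem libraries. Only Hk1 and Pfkm had all KO stem libraries above all WT stem libraries (11.6% of all tested genes), and none had all below (17.9%). Hk1 had 22228, 23478 and 22646 in KO stem against 14429, 21114 and 21979.5 in WT stem libraries, and 15389.5, 18414 and 17346 in KO differentiated against 20955, 19939 and 19709 in WT differentiated libraries. KO was thus above WT in one condition and below it in the other without overlap, but neither difference was called (adjusted p = 0.228 and 0.182), nor was the difference between them (log2 -0.52 ± 0.19, adjusted p = 0.1).

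Whether Wnt-3A withdrawal acted differently in KO than in WT was tested as the interaction of genotype and condition. No member was called, while 5.12% of all tested genes were called higher and 3.58% lower. In the limma fit 2 members had an unadjusted p under 0.05, and edgeR and DESeq2 called 0 members. The interaction was negative for 32 of 36 members (median -0.44, against 0.04 for all tested genes), and for 27 without WT stem library 1 (median -0.17). Without that library P4ha2 was called (log2 change 0.60, adjusted p = 0.0454, against log2 change 0.27 ± 0.32, adjusted p = 0.62 with it), 6.21% of all tested genes being called higher and 4.58% lower there.

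Other genes of the same pathways were counted for context, from 4 lists with 51 of 58 genes tested. After Wnt-3A withdrawal 28 of them fell and 9 rose in KO (33.6% and 34.1% of all tested genes), and 23 fell and 14 rose in WT (35.9% and 36.3%). They were 30 and 14 in KO and 27 and 13 in WT without WT stem library 1. Pentose phosphate genes fell together: 7 of 7 in KO (33.6% of all tested genes) and 5 of 7 in WT (35.9%). The KO call of Taldo1, 1 of the 7, was lost in 3 of 12 repeats that left out 1 library. G6pdx, glucose 6-phosphate dehydrogenase at the entry of that pathway, had 8846, 8372 and 7975 in KO differentiated against 21965, 17489 and 17079.5 in KO stem libraries (log2 change -1.16 ± 0.11, adjusted p = 2.43e-06). The WT values were 8211, 8332 and 7555 in differentiated against 19166, 14806 and 16664 in stem libraries (log2 change -1.06 ± 0.11, adjusted p = 3.49e-06). Tkt, transketolase, also fell (-0.94 in KO and -0.87 in WT).

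Of 20 other glycolysis and pyruvate genes tested, 11 fell and 5 rose in KO (33.6% and 34.1% of all tested genes), and 10 fell and 6 rose in WT (35.9% and 36.3%). Slc2a3, the high-affinity glucose transporter GLUT3, was at or under 27.7 normalized counts in every library and was called lower in both (-2.64 in KO and -1.74 in WT). It passed the filter only through the stem libraries (15.0 to 27.7, against 1.52 to 5.97 in differentiated libraries), so that the filter favoured a fall. The kinases that inhibit pyruvate dehydrogenase did not move together. Pdk2 and Pdk4 rose in both genotypes, Pdk2 with 1492, 1895 and 2162 in KO differentiated against 686, 698 and 580.2 in KO stem libraries (log2 change 1.49 ± 0.22, adjusted p = 9.66e-05) and 3114, 2643 and 3025 in WT differentiated against 344, 639 and 656 in WT stem libraries (log2 change 2.48 ± 0.22, adjusted p = 1.14e-06). Pdk3 fell in both, with 523, 577 and 564 in KO differentiated against 1277, 1402 and 1485 in KO stem libraries. Its WT values were 460, 508 and 429 in differentiated against 1493, 1490 and 1489 in stem libraries, and both calls held without each library in turn. Pdk4 was at or under 58.7 normalized counts, with 15.9 to 58.7 in differentiated against 0 to 10.2 in stem libraries. It passed the filter mainly through the differentiated libraries, which favoured a rise. Like Slc2a3, Pdk4 is part of the counts above.

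Gluconeogenic genes split. Pcx, pyruvate carboxylase, had 1476, 2307 and 2388 in KO differentiated against 14306, 12386 and 12826 in KO stem libraries (log2 change -2.71 ± 0.16, adjusted p = 7.93e-08), and 3388, 2641 and 3498 in WT differentiated against 11708, 11564 and 12274 in WT stem libraries (log2 change -1.91 ± 0.16, adjusted p = 8.27e-07). Pck2, the mitochondrial phosphoenolpyruvate carboxykinase, fell as well (-1.55 in KO and -2.35 in WT). Of 5 gluconeogenic genes tested, 3 fell and 2 rose in KO (33.6% and 34.1% of all tested genes). The same numbers fell and rose in WT (35.9% and 36.3%). Fbp2 rose, with 5246 to 7039 in KO differentiated against 3718 to 4040 in KO stem libraries. Its WT values were 7268 to 7961 in differentiated against 5719 to 6082 in stem libraries. Near the floor, Pck1 rose, with 11.4 to 65.9 in differentiated against 0 to 5.54 in stem libraries of both genotypes. Fbp1 fell there, with 0 to 3.41 against 10.2 to 23.1. Pck1 passed the filter only through differentiated libraries and Fbp1 only through stem libraries, so that the filter favoured these directions. Both are part of the gluconeogenic counts above. Of 19 other hypoxia genes tested, 7 fell and 2 rose in KO (33.6% and 34.1% of all tested genes), and 5 fell and 6 rose in WT (35.9% and 36.3%). These numbers were 9 and 7 in KO and 9 and 5 in WT without WT stem library 1, and 3 or 4 rose in KO without KO differentiated library 1, KO stem library 1, or WT stem library 2 or 3. Stc2, a secreted glycoprotein gene of stress responses, had 3894, 4204 and 4264 in KO differentiated against 13376, 17303 and 16670.3 in KO stem libraries (log2 change -1.93 ± 0.18, adjusted p = 2.02e-06), and 3289, 3138 and 2921 in WT differentiated against 10578, 18069 and 17985 in WT stem libraries (log2 change -2.28 ± 0.18, adjusted p = 3.62e-07). Cited2, which encodes an inhibitor of HIF-1 binding to its coactivators, rose in both (log2 change 1.56 ± 0.13, adjusted p = 7.74e-07 in KO and log2 change 1.52 ± 0.13, adjusted p = 6.29e-07 in WT). Arnt, the shared partner of HIF and AhR, was called in none of the 5 comparisons (log2 changes from -0.20 to 0.09).

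Between differentiated KO and WT organoids 10 of these 51 genes fell and 6 rose (13.9% and 13.8% of all tested genes). The numbers were 16 and 8 without WT stem library 1 (19% and 19.4%), and 4 and 2 without WT differentiated library 3. Ldhb, the lactate dehydrogenase form that favours lactate oxidation, had 527, 357 and 308 in KO against 98.4, 83.6 and 123 in WT libraries, and was 3.83-fold higher (log2 change 1.94 ± 0.21, adjusted p = 2.56e-04). Slc16a1, the monocarboxylate transporter MCT1 that carries lactate and butyrate, had 5052, 7984 and 8502 in KO against 12292, 10875 and 13081 in WT libraries and fell (log2 change -0.78 ± 0.16, adjusted p = 0.00575). Pklr fell too (log2 change -0.63 ± 0.11, adjusted p = 0.00282). The interaction was called higher for 2 of the 51 genes and lower for 2 (5.12% and 3.58% of all tested genes), counts near these shares. Higher were Ldhb (interaction 1.41 ± 0.29, adjusted p = 0.0194) and Rpia, and lower were Slc16a1 (-0.97 ± 0.23, adjusted p = 0.0274) and Pfkfb2. The call of Ldhb was lost without KO stem library 1 (adjusted p = 0.0513). That of Slc16a1 was lost in 5 of 12 repeats that left out 1 library (adjusted p up to 0.0767, without WT differentiated library 3). That of Rpia was lost in 8 of these repeats (adjusted p up to 0.103), while that of Pfkfb2 held in all 12 (adjusted p up to 0.0377). In the stem cell condition 2 of the 51 fell in KO and 1 rose (3.09% and 3.48% of all tested genes), counts near these shares. Pklr (log2 change -0.69 ± 0.11, adjusted p = 0.00417) and Fbp2 (log2 change -0.60 ± 0.10, adjusted p = 0.00482) fell. Pdk4 rose near the floor, with 8.1, 6.6 and 10.2 in KO stem against 0, 2.2 and 3.5 in WT stem libraries (log2 change 1.92 ± 0.51, adjusted p = 0.0495). That call was lost in 10 of the 12 repeats (adjusted p up to 0.144, without KO stem library 1).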

How the data were processed

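RNA of 12 mouse colonic organoid libraries was sequenced, 3 in each of 4 groups. According to the submitters' processing notes the reads were aligned to GRCm38 with Bowtie2, quantified with RSEM 1.2.11 and scaled with DESeq2 1.18.1. The deposited signal values are normalized counts per gene, in which the authors divided each library by a size factor, and strand use is not given in the sources used here. All values were whole multiples of 1 read within 0.05, so that reads were recovered (25057534 to 99023592 per library, precise to counting error at the levels reported). Ensembl identifiers were matched to GENCODE vM21 (99.3%). No column was left unused, and the labels give no batch.

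The values were tested as log2(normalized count + 1) with limma 3.58.1 in R 4.3.3, with a mean-variance trend and means of the 4 groups over all 12 libraries, two-sided, with Benjamini-Hochberg adjustment over the 14856 genes with at least 10 normalized counts in at least 3 libraries. Folds understate changes of genes near the pseudocount. Genes were called at an adjusted p under 0.05. Members were named where they were called, reached a mean of 50 and were among the 6 highest or lowest changes of a comparison. Hif1a, Epas1, Slc2a1, Ldha, Pkm and Vegfa were named throughout, and up to 4 called genes of each other list. The remaining members were described after their values were seen, to account for all 36. The members and lists were chosen with earlier results of these data known. A further gene of the lists is not reported here. Levels per kb use the merged exon length in GENCODE.

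Alternatives were pseudocounts of 0.5 and 5, no filter, a mean of at least 50, recomputed size factors, quantile normalization, tests of the recovered reads with edgeR 4.0.16 and with DESeq2 1.42.0, fits of only those groups that a comparison sets side by side, the replicate number as a block, and leaving out each library. Deviations from the group means correlated by 0.286, 0.191 and 0.256 between KO differentiated and KO stem libraries of the same number, a sign of pairing from the data rather than the labels. The main fit did not use this pairing, and changes and p-values come from it unless another fit is named. A block within each genotype, which uses the pairing, was added after the data were seen. The other pairs did not all correlate above 0.1. The limma step was tested on simulated data with known changes. Promoter stretches come from RefSeq (GRCm38.p6), and the 250 bases before each start were searched.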

Additional observations from a re-analysis of the deposited data

How the results depend on the processing

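The direction of all 3, 23 and 10 members called in the differentiated KO against WT comparison and after Wnt-3A withdrawal in KO and in WT was the same under recomputed size factors, quantile normalization, edgeR and DESeq2. The counts after Wnt-3A withdrawal in KO were within 1.5 times of 21 falling and 2 rising members under every alternative run. In WT, 11 members fell in DESeq2, and 5 to 22 when 1 library was left out. In differentiated KO against WT organoids the count of falling members was 1 with no filter, 1 in edgeR, 6 in DESeq2, 10 with only the groups compared, 10 with the replicate block, and 0 to 23 when 1 library was left out. That of rising members was 1 with only the groups compared, 1 with the replicate block, and 0 to 1 when 1 library was left out. Leaving out 1 library gave 0 to 1 falling members in the stem cell condition and 0 to 1 members with a higher interaction. The replicate block gave 1 member with a lower interaction, Pfkfb4 (adjusted p = 0.0274), and 24 falling members in KO, adding Aldoa, Bnip3 and Gys1. The labels tie same-numbered libraries by a number only, in KO as in WT. Outside the KO pairs, deviations of same-numbered libraries correlated by -0.05 (KO and WT differentiated library 2) to 0.20 (KO differentiated and WT stem library 1). Why these counts moved was not tested.

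Changes close to 0 turned sign. Between KO and WT stem libraries, Slc2a1 was 0.012 with quantile normalization and -0.47 to 0.22 without 1 library, Ldha -0.34 to 0.041 without 1 library, Pkm -0.059 with quantile normalization and -0.079 to 0.18 without 1 library, and Vegfa -0.15 in edgeR, -0.19 in DESeq2 and -0.68 to 0.35 without 1 library. Between differentiated libraries Pkm was 0.071 with quantile normalization. Vegfa after Wnt-3A withdrawal in WT was -0.78 to 0.25 without 1 library. In the interaction Pkm was 0.13 with quantile normalization, and without 1 library Slc2a1 was -0.66 to 0.032 and Vegfa -0.77 to 0.26. None of these changes was called with all libraries. Over 44 changes of named members and all alternatives, 48 values lost and 12 gained a call with the direction kept.

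Of 14856 genes, 976 were called between KO and WT stem libraries, against 1984 in DESeq2, 297 with only the groups compared, 1486 with the replicate block and 363 to 1414 without 1 library. The interaction called 1292, against 750 with no filter, 2438 in DESeq2, 2141 with the block and 342 to 1603 without 1 library. Differentiated KO against WT called 4103, and 2233 to 5699 without 1 library.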
